A study of Mus musculus with 20 samples.

Results

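The comparison described here is cigarette smoke against air in alveolar macrophages of wild type mice. Its members are the 10 libraries of wild type C57BL/6 mice among the 20 of the study, 5 from mice that breathed smoke for 4 weeks (WT smoke) and 5 from mice that breathed air (WT air), and all 13225 genes of the deposited table. The members were chosen by their labels alone, and a positive change means higher in smoke. The other 10 libraries came from mice that lack miR-155 (strain B6.Cg-Mir155tm1.1Rsky/J, called miR-155 KO), 5 in air and 5 in smoke, and are used only to share the estimate of spread and to ask where WT differs. Cells were sorted from lung by FACS as positive for CD45, Siglec-F and CD11c, each mouse gave 1 library with its own code, and 25 ng of RNA per sample entered poly-A selection. Neither sex and age of the mice nor the hour of collection is stated in the sources used here.

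Alveolar macrophages live on the air side of the lung, where they take up inhaled particles, dying cells and surplus surfactant, and break the cargo down in lysosomes. They renew themselves locally by cell division and depend on GM-CSF and PPAR-gamma, which drive their genes for lipid handling. Smoke particles reach them first, and macrophages of smokers are known for stored particles, enlarged lysosomes and release of the elastin-degrading protease MMP12.

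The 5 air libraries held 8354910 to 9380656 reads assigned to genes and the 5 smoke libraries 8890947 to 11385515. Values are in CPM, the reads of a gene scaled to the same library total, and per-library values are listed in the order Ia3, Ia4, Ib1, Ib2 and Ib4 for air and IIa1, IIa5, IIb1, IIb2 and IIb3 for smoke. The label was checked against marker genes. Of 18 measured alveolar macrophage markers, Chil3 (17389 ± 837 CPM in air and 17681 ± 2008 in smoke, SD, n = 5 each) and Itgax, which encodes CD11c (1930 ± 93.2 and 1890 ± 120 CPM), were high in both groups and passed no test. The summed markers ran from 33030 to 36555 CPM in air and from 29797 to 36698 CPM in smoke. Of the 18 markers 4 rose and 10 fell, led by Car4, a carbonic anhydrase (2.87-fold higher), and Fabp1 (7.93-fold lower), and the regulator Pparg did not pass (log2 change -0.17 ± 0.12). Among the genes of the sorting markers, Ptprc, which encodes CD45, was at 1354 ± 40.6 CPM in air and 845 ± 98.1 CPM in smoke, and Siglecf was at 520 ± 34.8 CPM in air and 223 ± 51.0 CPM in smoke. Among markers of other cells, the T and NK cell sum reached at most 3.10 CPM, the B cell sum 1.71 CPM and the mast cell sum 2.59 CPM in any library, and no red blood cell gene was in the table. The neutrophil sum was 59.7 to 84.7 CPM in air and 39.0 to 68.9 CPM in smoke. Of the 10 neutrophil markers listed, 4 were in the table. Csf3r held 57.4 of the mean sum of 73.3 CPM in air and fell to 17.8 CPM in smoke. The means of S100a8 (8.2 to 15.3 CPM, not called), S100a9 (0 to 1.73 CPM) and Cxcr2 (7.7 to 16.1 CPM) were higher in smoke. The part of neutrophils in the results was not tested. The eosinophil sum was 72.0 to 82.2 CPM in air and 126 to 193 CPM in smoke without overlap (exact permutation p = 0.00794, adjusted p = 0.0337, n = 5 per group). Of the 7 eosinophil markers listed, 2 were in the table, Ear6, which rose (17.8 ± 3.88 to 130 ± 23.1 CPM), and Siglece, which fell (59.6 ± 5.01 to 28.1 ± 4.07 CPM); the part of eosinophils in the results was not tested. The epithelial sum was 183 to 247 CPM in air and 180 to 232 CPM in smoke. In a sorted bulk sample, a change in the share of cells that express a gene and a change in its RNA per cell cannot be told apart.

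The response was broad and mostly shallow. In limma, 2968 of 13225 genes (22.4%) passed an adjusted p of 0.05 (Benjamini-Hochberg over all genes), 1278 higher with smoke (9.66%) and 1690 lower (12.8%). The median change was 1.51-fold among genes called higher and 1.40-fold among those called lower, and 49.2% and 64.1% of them changed by less than 1.5-fold. At least 2-fold changes were called for 396 higher (2.99%) and 242 lower genes (1.83%). For 1078 genes (8.15%) all 5 smoke values lay above all 5 air values, and for 1322 (10%) all lay below. Genes called higher took 16.7% of all reads in air and 23.6% in smoke, and genes called lower took 25.8% in air and 18.8% in smoke. The median change of all genes was -0.02 on the log2 scale, so single changes below are also changes against the typical gene. Over the genes called higher, the median log2 distance of each smoke library from the air mean was 0.62, 0.53, 0.67, 0.61 and 0.61, and over those called lower it was -0.45, -0.38, -0.54, -0.52 and -0.50. The mouse IIa5 thus showed the smallest response and IIb1 the largest in both sets, which were chosen on these libraries. The share of higher among called genes was 50.7% after quantile normalization, against 43.1% as fitted.

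**Figure D1:**
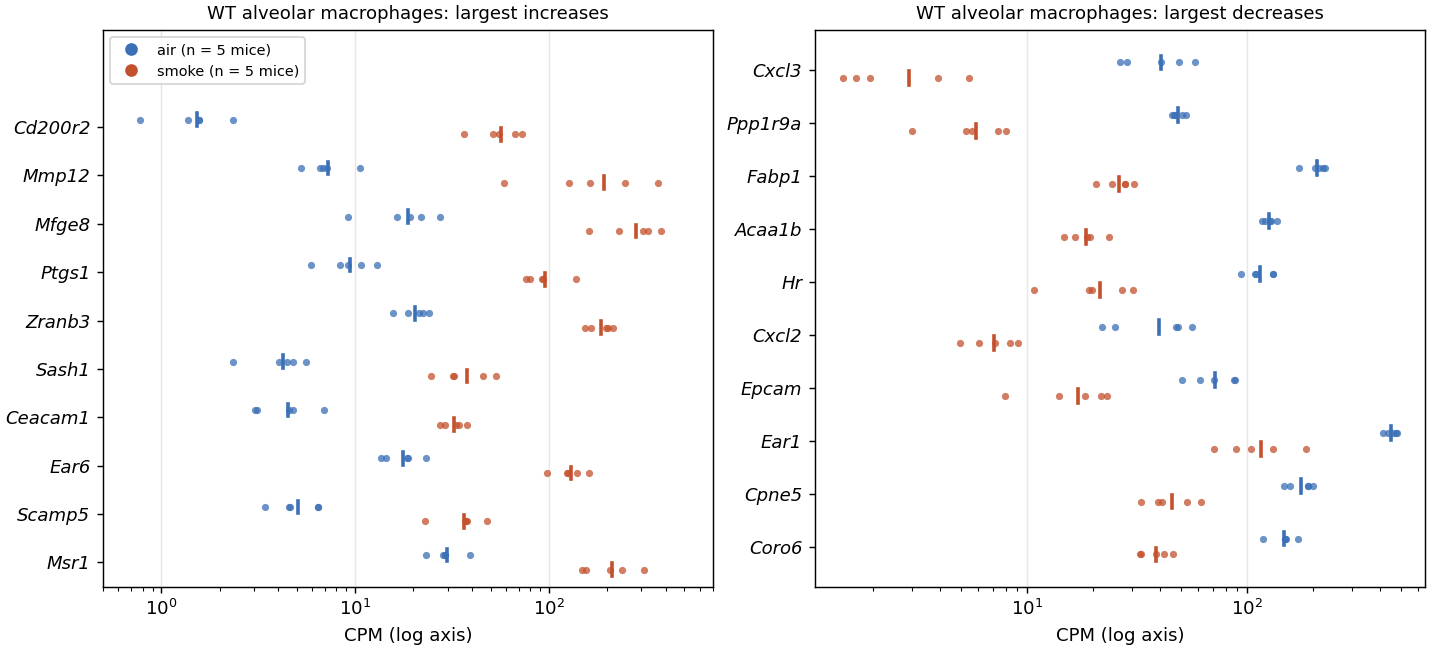
CPM (log axis) of the 10 genes with the largest increase (left) and the 10 with the largest decrease (right) among abundant genes, leaving out predicted and clone names (Gm or Rik), with 1 point per mouse and a bar at the mean, blue for WT air and red for WT smoke (n = 5 each). No air point overlaps a smoke point for any of the 20 genes, since lack of overlap was part of the choice; Mmp12 spread most widely among the smoke mice drawn on the left, from 58.8 to 367 CPM.

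Among abundant genes, the largest increases included Cd200r2, Mmp12, Mfge8, Ptgs1 and Zranb3, and the largest decreases Cxcl3, Ppp1r9a and Fabp1. The 20 genes of both ends were picked for their size of change and lack of overlap among genes other than predicted and clone names (Gm or Rik), so the values describe them. Cd200r2, a paired receptor of the CD200 receptor family, was at 1.37, 1.56, 0.777, 2.35 and 1.57 CPM in the air libraries and at 51.6, 36.7, 66.9, 55.3 and 72.7 CPM in the smoke libraries. The lowest smoke value of Cd200r2 stood well above the highest air value, and its log2 change was 5.20 ± 0.36 (SE, n = 5 per group; limma adjusted p = 1.25e-11). Mmp12, macrophage elastase, was at 5.25, 7.18, 6.55, 6.82 and 10.6 CPM in air and at 162, 58.8, 367, 126 and 247 CPM in smoke. Mmp12 thus differed several-fold between smoke mice, with IIa5 lowest and IIb1 highest (log2 change 4.50 ± 0.38, adjusted p = 6.15e-10). Mfge8, the bridge by which phagocytes bind dying cells, rose from 18.8 ± 6.74 to 280 ± 85.0 CPM (SD). Msr1, a class A scavenger receptor, rose from 29.8 ± 5.75 to 212 ± 65.9 CPM. Zranb3, an annealing helicase of stalled replication forks, was at 22.5, 15.7, 24.1, 18.7 and 21.3 CPM in air and at 197, 153, 214, 201 and 166 CPM in smoke. Both groups of Zranb3 values were tight, and the rise was 9.11-fold (adjusted p = 1.13e-14). The scaffold gene Sash1 (8.80-fold), the adhesion gene Ceacam1 (7.41-fold), the ribonuclease gene Ear6 (7.32-fold) and the secretory carrier gene Scamp5 (7.15-fold) completed the upper end together with Ptgs1.

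Among the largest decreases, Cxcl3, a neutrophil attractant, was at 28.4, 26.5, 48.9, 58.1 and 40.6 CPM in air and at 1.67, 1.45, 3.94, 1.93 and 5.45 CPM in smoke, a 15.1-fold fall (adjusted p = 1.66e-08). Its neighbour in function Cxcl2 fell 5.33-fold. Fabp1, a fatty acid binding protein, was at 213, 172, 222, 202 and 226 CPM in air and at 24.2, 27.7, 27.9, 20.6 and 30.5 CPM in smoke. Fabp1 had the smallest p of all genes named here (log2 change -2.99 ± 0.12, adjusted p = 1.93e-16), and the smoke mice were nearly alike. Acaa1b, a thiolase of peroxisomal fatty acid breakdown, fell from 125 ± 7.77 to 18.5 ± 3.40 CPM. Ppp1r9a, an actin-binding scaffold of protein phosphatase 1, fell 8.65-fold and Hr, a nuclear corepressor, 5.65-fold. Epcam, an adhesion gene better known from epithelium, fell 4.39-fold. It is itself 1 of 9 measured epithelial markers, of which 3 rose and 2 fell. Cdh1 (log2 change 0.59), Hopx (1.53, from 2.70 to 7.96 CPM) and Foxj1 (2.28, from 0.49 to 1.65 CPM) rose. Napsa fell with Epcam (log2 change -0.90). The part of epithelial RNA in the change of Epcam was not tested. Ear1 fell 4.13-fold as Ear6 rose; Ear ribonuclease genes are near-identical copies, so reads may be split between them and their single values are uncertain. The calcium-dependent membrane binding gene Cpne5 (3.92-fold) and the coronin gene Coro6 (3.84-fold) fell as well.

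Counted in reads, the response was carried by a different set. The 6 largest gains of mean CPM among called genes were in Ccl6, a chemokine of resident macrophages (4390 ± 286 to 7647 ± 974 CPM), the proteases Ctsk (947 ± 113 to 3899 ± 531) and Ctsd (4942 ± 117 to 7690 ± 769), the ferritin heavy chain Fth1 (6645 ± 511 to 9194 ± 1201), Psap, the precursor of the saposins that help lipid breakdown (6346 ± 165 to 8689 ± 902), and beta-actin Actb (5341 ± 154 to 7062 ± 505). Fth1 and Actb have processed copies in the genome that can take or lend reads. These calls depended on the scale: after quantile normalization the log2 changes of Psap and Actb were -0.08 and -0.07, those of Ctsd and Fth1 were 0.20 and 0.06, and none of the 4 passed. The 6 largest losses were in lipoprotein lipase Lpl (3812 ± 666 to 2559 ± 231 CPM), Txnip, an inhibitor of thioredoxin and glucose uptake (1968 ± 152 to 989 ± 129), Cybb, the catalytic chain of the phagocyte oxidase (2303 ± 212 to 1527 ± 139), Ear2 (1243 ± 68.2 to 497 ± 73.9), filamin Flna (3886 ± 276 to 3173 ± 136) and the dying-cell receptor Axl (2424 ± 99.0 to 1736 ± 161). Flna did not pass once the length trend described further on was removed (log2 change -0.11). In Lpl alone of these 12 the groups overlapped, through the air library Ib1 at 2649 CPM.

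**Figure D2:**
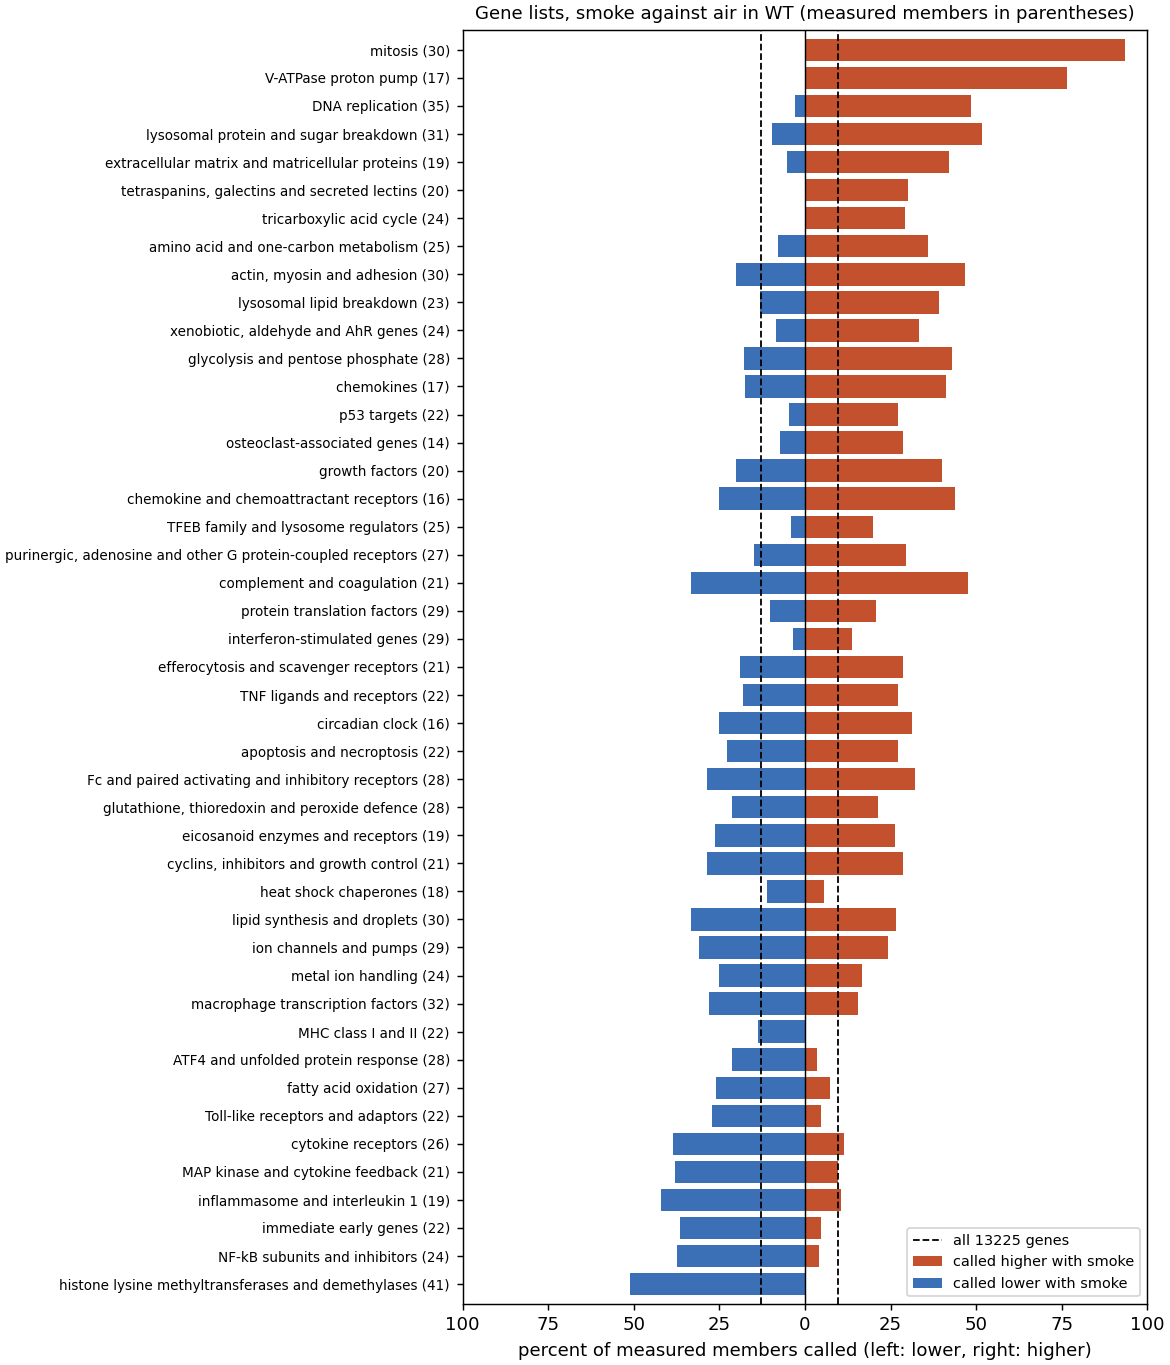
Percent of measured members called higher (red, right) and lower (blue, left) with smoke in WT for 45 gene lists, ordered by the difference. Dashed lines mark the shares over all 13225 genes, 9.66% higher and 12.8% lower; mitosis and V-ATPase genes stand at the top with 28 of 30 and 13 of 17 higher, and histone methylation enzymes at the bottom with 21 of 41 lower.

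Genes of the lysosomal proton pump mostly rose, and of the genes of lysosomal breakdown more were called higher than lower. Lysosomes digest cargo with acid hydrolases, and the V-ATPase pumps in the protons they need. Of 31 genes for protein and sugar breakdown 16 rose and 3 fell (median log2 change 0.21, against -0.02 for all genes), and of 23 for lipid breakdown 9 rose and 3 fell (median 0.17). Of 17 V-ATPase genes 13 rose (76.5%) and none fell. The shares over all genes were 9.66% higher and 12.8% lower. All 13 kept their air and smoke values apart, as did 916 of the 1278 genes called higher. Ctsk, a collagen-cutting cathepsin, was at 916, 1081, 810, 882 and 1044 CPM in air and at 4169, 3335, 4571, 4037 and 3381 CPM in smoke, a 4.11-fold rise with every smoke mouse over 3 times the highest air mouse. Lgmn, the asparaginyl endopeptidase, rose 2.04-fold, and the pump subunit genes Atp6v0a1 and Atp6v1c1 1.68-fold each. In the other direction, Ctsf, Ctsh and Ids fell among the protein and sugar genes and Pla2g15, Pld4 and Smpdl3b among the lipid genes; Smpdl3b was not called without Ib1, Ib2, Ib4 or any 1 of the smoke libraries. Among the sensors that control the lysosome, 5 of 25 genes of the TFEB family and the Ragulator and Rag proteins rose, among them Lamtor1 (1.5-fold) and Fnip2 (1.48-fold), and 1 fell, while Tfeb itself did not pass (log2 change -0.09). Cd63, a lysosomal tetraspanin, rose 3.80-fold, and 6 of 20 tetraspanin and galectin genes rose with none lower.

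The lysosomal genes were compared by their start regions because a shared palindrome, the core of the element read by TFEB and its relatives, is known from such genes. Windows of 250 bases before to 50 after annotated starts (RefSeq, GRCm38.p6) were found for 9651 of the 13225 genes. The letters TCACGTGA, which hold the E-box CACGTG and read the same on both strands, occurred in the windows of 2.21% of these genes, in 2.61% of those called higher and in 1.95% of those called lower. They occurred in 3 of 12 V-ATPase genes (25%), in 3 of 27 genes of protein and sugar breakdown (11.1%) and in 1 of 17 of lipid breakdown (5.88%). Ctsd (1.55-fold higher), Ctsa, a serine carboxypeptidase (1.28-fold), and Atp6v0d1, a pump subunit (1.27-fold), are shown as the members with a match that rose; capitals mark the match, and each line runs 5′ to 3′ on the strand of the gene.
Ctsd promoter, chr7:142387778-142388077, minus strand, GRCm38.p6: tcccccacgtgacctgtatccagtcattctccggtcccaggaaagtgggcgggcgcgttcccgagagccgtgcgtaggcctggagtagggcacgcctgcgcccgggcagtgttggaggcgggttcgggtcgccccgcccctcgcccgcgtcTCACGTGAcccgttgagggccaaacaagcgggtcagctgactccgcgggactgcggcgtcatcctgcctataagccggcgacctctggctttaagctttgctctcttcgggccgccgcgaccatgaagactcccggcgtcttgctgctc
Ctsa promoter, chr2:164833523-164833822, plus strand, GRCm38.p6: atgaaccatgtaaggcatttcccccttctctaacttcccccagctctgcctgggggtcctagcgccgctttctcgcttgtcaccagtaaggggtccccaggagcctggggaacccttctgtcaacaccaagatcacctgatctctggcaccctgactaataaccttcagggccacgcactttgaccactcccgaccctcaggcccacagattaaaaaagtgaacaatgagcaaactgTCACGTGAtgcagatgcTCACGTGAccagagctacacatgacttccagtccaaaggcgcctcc
Atp6v0d1 promoter, chr8:105566015-105566314, minus strand, GRCm38.p6: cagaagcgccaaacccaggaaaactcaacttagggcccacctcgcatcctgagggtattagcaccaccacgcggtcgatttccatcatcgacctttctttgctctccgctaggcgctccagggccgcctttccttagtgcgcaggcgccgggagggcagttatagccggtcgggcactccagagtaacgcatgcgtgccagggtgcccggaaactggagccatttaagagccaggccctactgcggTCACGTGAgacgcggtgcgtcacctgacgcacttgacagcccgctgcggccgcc
A match is a description of letters in this window. The windows of Plbd1, Sgsh and Ctsk held none; these genes had the largest log2 changes of the block (5.00, 3.87 and 2.04), the first and second from under 1 CPM in air.

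Receptors for particles, dying cells and complement changed in both directions. Of 21 genes of efferocytosis and scavenger uptake 6 rose (28.6%) and 4 fell (19%), against 9.66% and 12.8% of all genes. Beside Msr1 and Mfge8, Cd93, a lectin-like receptor, rose 4.80-fold and Marco, a scavenger receptor of alveolar macrophages, 1.72-fold. Marco was at 1568, 1461, 1895, 1594 and 2976 CPM in smoke, with IIb3 highest, and at 980 to 1111 CPM in air. Cd36, the TAM ligand gene Pros1 and the mannose receptor gene Mrc1 fell with Axl. Of 28 Fc and paired receptors 9 rose and 8 fell. Trem2, a lipid-sensing receptor, was at 22.2, 18.3, 15.3, 19.2 and 16.8 CPM in air and at 61.2, 49.9, 73.7, 54.6 and 58.2 CPM in smoke, a 3.23-fold rise without overlap. Clec5a, an activating lectin receptor, rose 2.56-fold. Clec4e, the lectin Mincle that senses microbial glycolipids, fell 2.84-fold, and the inhibitory Siglece fell with Siglecf.

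Complement and chemoattractant receptors split by ligand. The receptors for C5a, C5ar1 (260 ± 29.0 to 97.0 ± 18.8 CPM) and C5ar2, fell, as did both formyl peptide receptors Fpr1 (460 ± 58.1 to 253 ± 34.1 CPM) and Fpr2 (181 ± 20.7 to 95.9 ± 3.78 CPM). The receptor for C3a, C3ar1, was at 0, 0.479, 0, 0 and 0.561 CPM in air and at 19.3, 6.91, 41.8, 14.5 and 12.9 CPM in smoke. The interleukin 8 type receptor Cxcr1 rose 2.11-fold and Cxcr2 1.99-fold, and Cxcr2 is also a neutrophil marker; of the other 3 neutrophil markers measured, Csf3r fell 3.23-fold in the same mice, S100a8 did not pass (8.20 and 15.3 CPM) and S100a9 went from no read in air to 81 reads in smoke, 1.73 ± 1.68 CPM. In all, 7 of 16 such receptors rose (43.8%) and 4 fell (25%), against 9.66% and 12.8% of all genes. Without the air library Ia4 4 rose. Of 17 chemokines 7 rose and 3 fell: Ccl22 (2.21-fold) and Ccl17 (4.28-fold), ligands of CCR4, rose with Ccl6, and the neutrophil attractants Cxcl1, Cxcl2 and Cxcl3 fell. Cxcl1 was not called without Ia3, IIa5 or IIb3, nor was Cxcr2 without Ib2 or IIb1. The complement and coagulation list had 10 of 21 higher and 7 lower, and without the smoke library IIb1 6 were higher. Its lower members included C3 itself, the central complement protein (1.65-fold), and Cfb of the alternative pathway (2.21-fold).

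Prostanoid genes changed in both directions, with the widest changes upward. Cyclooxygenases make PGH2, which separate synthases turn into prostaglandins and thromboxane. Ptgs1, the constitutive cyclooxygenase, was at 10.7, 8.38, 9.22, 13 and 5.95 CPM in air and at 91.6, 76.3, 139, 79.6 and 93.4 CPM in smoke, a 10.2-fold rise (adjusted p = 3.51e-09). Hpgds, the synthase of prostaglandin D2, was at 7.42, 8.50, 2.22, 6.93 and 5.17 CPM in air and at 24.9, 21.6, 23.8, 22.2 and 23.7 CPM in smoke, a 4.19-fold rise. Ptgir, the prostacyclin receptor, rose from 54.6 ± 9.21 to 162 ± 13.2 CPM. In each of these 3 genes the lowest smoke mouse lay far above the highest air mouse. The prostaglandin E2 synthase genes Ptges and Ptges2, the thromboxane synthase gene Tbxas1, the leukotriene C4 synthase gene Ltc4s and the E2 receptor gene Ptger2 fell, by log2 changes of -0.83 to -0.35. The calls of Ptges, Ptges2 and Ptger2 each rested on single libraries. That of Ptges was lost without Ib1, Ib2, Ib4 (log2 change -0.69), IIa1, IIb1 or IIb2. That of Ptges2 was lost without Ia3 or IIa1 (-0.55), and that of Ptger2 without Ia4, Ib1, Ib2, IIa1, IIa5 (-0.28) or IIb2. Alox5ap, the partner of 5-lipoxygenase, rose slightly (log2 change 0.32). Over the list 5 of 19 rose and 5 fell (26.3% each), against 9.66% and 12.8% of all genes. Without the smoke library IIa1 2 fell.

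Among sensing and cytokine genes, more were called lower than higher in each of 4 lists, and most members did not pass. Over all genes 12.8% were lower and 9.66% higher. At a mean log2 CPM of 6 to 8 in air 28.8% were lower and 12.1% higher, and from 8 upward 35.6% and 18.2%. The 4 lists, with 27.3% to 42.1% lower, were not compared with genes of like level. Of 22 Toll-like receptor and adaptor genes 6 fell and 1 rose, with the RNA sensor Tlr8 (1.61-fold lower) and the lipopolysaccharide co-receptor Cd14 (1.59-fold lower) as the largest falls; the riser, Irak2, lost its call in every fit that left out 1 library except the one without Ia4. Of 19 inflammasome and interleukin 1 genes 8 fell and 2 rose. Nlrc4, the inflammasome for flagellin, was at 62.1, 57.7, 57.9, 61.3 and 63.0 CPM in air and at 42.3, 39.9, 42.2, 40.0 and 37.5 CPM in smoke, and its flagellin and needle sensors Naip2, Naip5 and Naip6 fell with it. Il1b varied widely in both groups, at 29.1 to 76.8 CPM in air and 9.25 to 51.9 CPM in smoke (adjusted p = 0.0171), and its call was lost without Ib1, IIa5 or IIb3. Of 26 cytokine receptors 10 fell and 3 rose. Csf3r, the receptor of G-CSF, was at 47.4 to 66.7 CPM in air and at 14.8 to 21.0 CPM in smoke, Il6ra fell 1.97-fold and Tgfbr1 1.72-fold. Il7r, a receptor better known from lymphocytes, was at 0.571, 0.718, 0.777, 1.60 and 1.12 CPM in air and at 12.5, 7.35, 39.3, 9.65 and 23.8 CPM in smoke. Feedback genes of MAP kinases and cytokines fell in 8 of 21 cases, with Dusp5 2.23-fold lower, and 2 rose; without the smoke library IIb2 4 fell. Socs3 was among the risers, with 11.3 to 28.0 CPM in air and 25.6 to 98.4 CPM in smoke, where the lowest smoke library IIa5 overlapped the air mice.

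Among NF-kB, immediate early and macrophage transcription factor genes more were called lower than higher, and most members of each list did not pass. In these lists 28.1% to 37.5% were lower and 4.17% to 15.6% higher, against 12.8% and 9.66% of all genes. Among genes at a mean log2 CPM of 6 to 8 in air the shares were 28.8% and 12.1%, and the lists were not compared with genes of like level. Of 24 NF-kB subunits and inhibitors 9 fell and 1 rose. Nfkb1, the p105 precursor subunit, was at 219, 221, 244, 249 and 222 CPM in air and at 161, 150, 176, 164 and 144 CPM in smoke, with every smoke mouse below every air mouse. The feedback inhibitors Tnfaip3 (1.72-fold) and Nfkbia (1.42-fold) fell too, but with overlap between the groups, and Traf1, the riser, was not called without Ia4. Of 22 immediate early genes 8 fell and 1 rose, with Btg2, an inhibitor of proliferation, 1.93-fold and Fos 1.65-fold lower; without the air library Ia3 5 fell. Fos spread widely in air, from 187 to 457 CPM. Of 32 macrophage transcription factors 9 fell and 5 rose, and without IIa5 3 rose. Runx1 went from 266 ± 32.2 to 161 ± 22.3 CPM and Klf9 fell 2.44-fold.

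The TNF family split, with 6 of 22 genes higher (27.3%) and 4 lower (18.2%), against 9.66% and 12.8% of all genes. Without the smoke library IIb1 4 were higher. Tnf itself was at 18.6, 23.2, 30.9, 36.7 and 30.1 CPM in air and at 13.3, 16.4, 15.5, 13.7 and 16.9 CPM in smoke, below all air mice and much more even. The B cell survival factor gene Tnfsf13b fell 2.46-fold, and Tnfsf8, the CD30 ligand, had no read in air. Of 22 MHC class I and II genes 3 fell (13.6%, near the 12.8% of all genes) and none rose. The peptide loading gene H2-DMa was 1.64-fold lower. In miR-155 KO 12 of these genes fell and 1 rose, and the difference between the responses passed for none of them. Of 29 interferon-stimulated genes 4 rose (13.8%) and 1 fell (3.45%), against 9.66% and 12.8% of all genes. Without the air library Ia4 1 rose. Irf7, a regulator of type I interferon, owed its mean to a single mouse: IIb1 was at 49.8 CPM and the other smoke mice at 8.17 to 12 CPM, and its call was lost without IIb1 (log2 change 0.94), without Ia3, Ia4, Ib1, Ib2, IIb2 or IIb3, after quantile normalization and with the length trend removed.

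Genes of the circadian clock loop changed in both directions. In that loop CLOCK and ARNTL switch on E-box genes, among them Nr1d1, Nr1d2, the Per genes, Dbp and Tef, and the NR1D1 and NR1D2 proteins repress Arntl and Cry1. Nr1d1 was at 3.43, 2.39, 1.55, 4.26 and 2.47 CPM in air and at 30.6, 19.1, 22.3, 25.7 and 47.2 CPM in smoke, a 10.1-fold difference (log2 change 3.34 ± 0.29, adjusted p = 9.59e-10). Nr1d2 was at 12.5, 21.1, 18.4, 14.4 and 15.5 CPM in air and at 44.2, 47.8, 38.9, 38.2 and 59.1 CPM in smoke. For both genes every smoke mouse stood above every air mouse. The output factors Tef (16.9 ± 8.43 to 56.6 ± 9.85 CPM) and Dbp (0.384 ± 0.238 to 2.54 ± 0.722 CPM) and the period gene Per3 (5.03 ± 1.88 to 15.9 ± 3.39 CPM) rose too.

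In the other direction, Arntl was at 23.6, 26.7, 31.1, 27.5 and 25.7 CPM in air and at 12.5, 18.6, 12.9, 12.5 and 13.4 CPM in smoke. Cry1 fell from 52.8 ± 7.51 to 24.3 ± 6.34 CPM. Arntl and Cry1 kept the groups apart. The kinase gene Csnk1e (1.33-fold) and Rora, which activates Arntl (1.34-fold), fell as well, although Rora did not pass with the length trend removed (log2 change -0.19). Clock, Per1 and Per2 did not pass, with log2 changes of -0.11 ± 0.13, -0.48 ± 0.21 and -0.11 ± 0.17. In all 5 of 16 clock genes rose (31.2%) and 4 fell (25%), against 9.66% and 12.8% of all genes. The 5 that rose and both Arntl and Cry1 were called in the same direction in miR-155 KO mice. The hour at which the air and the smoke mice were killed is not given in the sources used here, so hour and exposure cannot be told apart. Among the 14 clock genes with a window, the letters CACGTG, read on both strands, were in 4 (28.6%, against 12.2% of all genes with a window). The clock genes had 1.57 windows per gene and all genes 1.27, so more bases were searched per clock gene. Tef is shown as the member that rose and held a match, which begins 127 bases before the start and is in capitals.
Tef promoter, chr15:81802423-81802722, plus strand, GRCm38.p6: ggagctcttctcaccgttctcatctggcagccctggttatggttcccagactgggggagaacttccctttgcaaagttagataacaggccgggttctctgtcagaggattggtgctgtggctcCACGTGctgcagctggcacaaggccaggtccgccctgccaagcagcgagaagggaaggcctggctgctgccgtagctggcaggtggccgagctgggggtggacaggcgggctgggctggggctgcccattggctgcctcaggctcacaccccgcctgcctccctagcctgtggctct
The windows of Nr1d1, Nr1d2, Per3 and Dbp held no CACGTG.

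**Figure D3:**
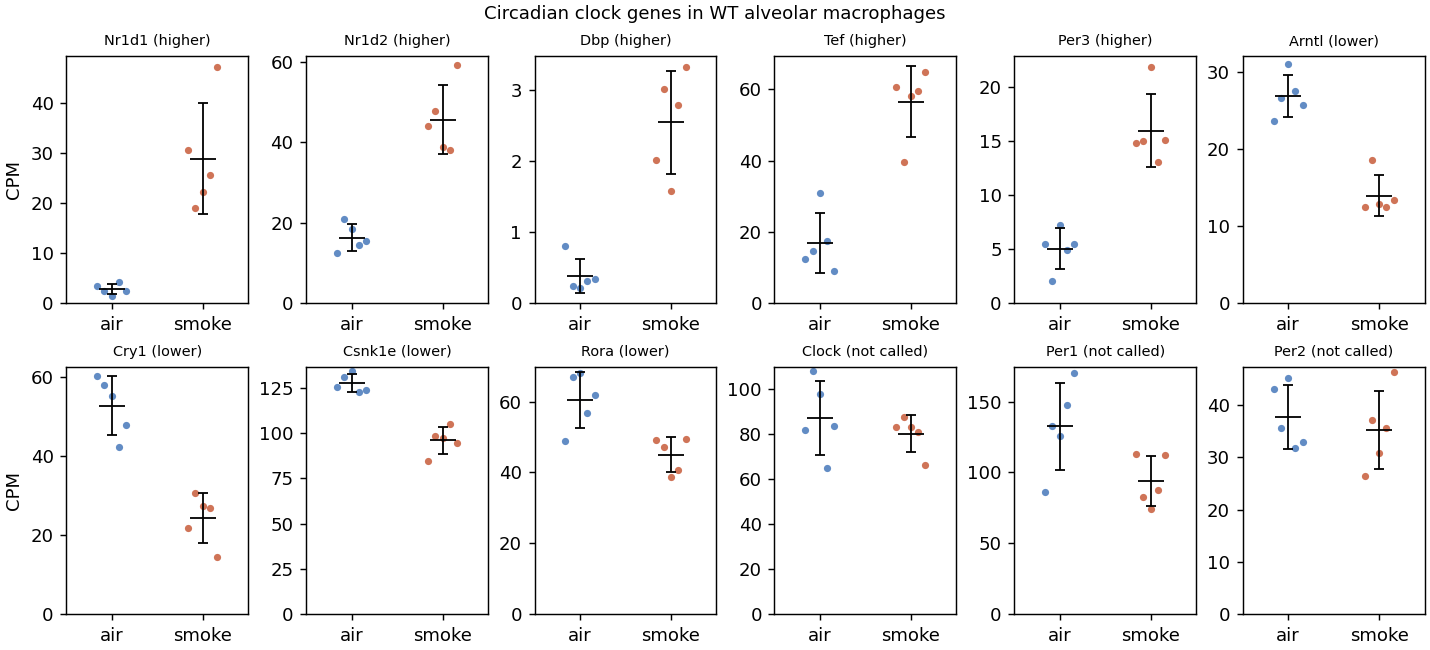
CPM of 12 circadian clock genes in WT air (blue) and WT smoke (red), with 1 point per mouse, the mean and the SD (n = 5 each); each axis starts at 0. Smoke points lie above all air points for Nr1d1, Nr1d2, Dbp, Tef and Per3 and below all air points for Arntl, Cry1 and Csnk1e, and they overlap for Rora, Clock, Per1 and Per2.

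Nearly all mitosis genes rose, and 17 of 35 DNA replication genes did, against 9.66% of all genes higher and 12.8% lower. Of 30 mitosis genes 28 rose and none fell (median log2 change 0.81), and among the DNA replication genes 1 fell (median 0.46 on the log2 scale). Ccnb2, a cyclin of mitotic entry, was at 27.6, 32.6, 21.2, 27.1 and 25.5 CPM in air and at 67.2, 67.5, 66.6, 66.7 and 70.5 CPM in smoke, so the 5 smoke mice were almost the same. Mki67, the proliferation marker Ki-67, rose 1.74-fold, the mitotic kinase gene Cdk1 1.67-fold and the topoisomerase gene Top2a 1.73-fold. Of 31 kinesins, motors that include those of the spindle, 11 rose and 6 fell, with Kif20a 2.26-fold higher; with the length trend described further on removed, 12 rose and none fell. Rrm2, the regulated chain of ribonucleotide reductase, led the replication list with a log2 change of 1.29. The regulators of cell cycle entry split, with 6 of 21 higher and 6 lower: Cdk4 rose 1.63-fold while the related kinase gene Cdk6 fell 1.84-fold, and the D-type cyclin gene Ccnd2 fell while the very low Ccnd1 rose. Among 22 p53 targets 6 rose and 1 fell, with Cdkn1a, an inhibitor of cell cycle kinases, at 136 ± 10.2 CPM in air and 239 ± 27.4 CPM in smoke, Zmat3 1.81-fold and Ccng1 1.35-fold higher.

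Mitotic genes are known to share the CHR element, TTTGAA, close to their start. These letters, on either strand, were within 50 bases of the start in 18 of 25 mitosis genes with a window (72%), against 3.84% of all 9651 genes; that distance was chosen after seeing where the matches lay. Over the whole window they were in 19 of the 25 (76%) and in 14.5% of all genes. The shares near the start were 7.42% of genes called higher and 3.60% of genes called lower. Ccnb2, Cdk1 and Top2a are shown as members with a match near the start, in capitals.
Ccnb2 promoter, chr9:70421505-70421804, minus strand, GRCm38.p6: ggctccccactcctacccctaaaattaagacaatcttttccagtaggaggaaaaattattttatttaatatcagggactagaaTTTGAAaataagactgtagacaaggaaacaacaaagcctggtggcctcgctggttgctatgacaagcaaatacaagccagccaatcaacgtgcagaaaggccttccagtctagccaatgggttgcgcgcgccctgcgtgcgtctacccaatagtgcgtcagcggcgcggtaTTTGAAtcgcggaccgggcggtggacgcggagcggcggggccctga
Cdk1 promoter, chr10:69352863-69353162, minus strand, GRCm38.p6: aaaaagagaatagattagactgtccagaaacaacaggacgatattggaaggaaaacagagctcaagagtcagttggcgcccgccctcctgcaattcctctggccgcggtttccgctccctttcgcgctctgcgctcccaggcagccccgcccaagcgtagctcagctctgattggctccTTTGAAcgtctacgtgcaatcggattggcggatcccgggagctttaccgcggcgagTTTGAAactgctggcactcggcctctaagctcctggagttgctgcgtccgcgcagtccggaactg
Top2a promoter, chr11:99024140-99024439, minus strand, GRCm38.p6: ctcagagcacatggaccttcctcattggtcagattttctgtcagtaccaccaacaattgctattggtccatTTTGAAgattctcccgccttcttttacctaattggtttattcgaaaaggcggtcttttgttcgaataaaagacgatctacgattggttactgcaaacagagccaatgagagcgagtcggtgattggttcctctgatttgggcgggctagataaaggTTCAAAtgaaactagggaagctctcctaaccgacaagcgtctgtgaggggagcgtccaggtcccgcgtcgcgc
The match nearest the start begins 15 bases before it in Cdk1 and 23 bases before it in Top2a, and lies on the transcript side of the start in Ccnb2.

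Genes of sugar, amino acid and fat metabolism were called in both directions. The shares over all genes were 9.66% higher and 12.8% lower. Of 28 glycolysis and pentose phosphate genes 12 rose and 5 fell: Aldoc, an aldolase (2.03-fold), Eno1, an enolase (1.58-fold), and the glucose carrier gene Slc2a1 (2.21-fold) rose, and the pentose phosphate genes Pgd and Taldo1 fell. Of 25 amino acid and one-carbon genes 9 rose and 2 fell, with Psat1 of serine synthesis at 22.0 ± 2.68 CPM in air and 54.5 ± 4.73 CPM in smoke. Of 24 citric acid cycle genes 7 rose and none fell, with log2 changes of 0.19 to 0.41; with the length trend described further on removed, 4 rose and 1 fell. Of 27 fatty acid oxidation genes 7 fell and 2 rose, and apart from Acaa1b the falls had log2 changes of -0.44 to -0.25. Lipid synthesis and storage genes went both ways (8 of 30 higher, 10 lower): Fabp5, a fatty acid binding protein, rose 1.88-fold and the desaturase gene Scd1 1.84-fold, while the droplet gene Cidec fell 2.47-fold and the cholesterol exporter Abca1 2-fold. Of 32 ATP-binding cassette transporters 4 were higher (12.5%, near the share of all genes) and 7 lower (21.9%). The xenobiotic pump Abcg2 rose from 18.9 ± 4.49 to 52.1 ± 4.54 CPM and the glutathione conjugate pump Abcc1 fell 1.83-fold.

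Smoke carries oxidants, metals and aromatic hydrocarbons, and the genes that handle them did not move as a block. Of 28 glutathione, thioredoxin and peroxide defence genes 6 rose and 6 fell (21.4% each), against 9.66% and 12.8% of all genes. Prdx2 rose 1.48-fold, and Mgst1 (1.74-fold), catalase Cat (1.48-fold) and Gclm (1.73-fold) fell. Hmox1, heme oxygenase, was at 541, 498, 733, 556 and 686 CPM in air and at 217, 301, 211, 263 and 215 CPM in smoke, 2.50-fold lower without overlap. Metallothioneins, which bind zinc, copper and cadmium, fell too, with Mt2 at 110 ± 17.2 CPM in air and 61.8 ± 16.5 CPM in smoke. Of 24 xenobiotic, aldehyde and aryl hydrocarbon receptor genes 8 rose and 2 fell. Arnt2, a partner of that receptor, was at 1.03, 2.39, 1.78, 0.959 and 0.112 CPM in air and at 22.7, 18.1, 35.5, 20.3 and 38.2 CPM in smoke, and the epoxide hydrolase Ephx1 rose 2.33-fold. The receptor Ahr and its targets Nqo1 and Tiparp did not pass. Of 18 heat shock chaperones 1 rose (5.56%) and 2 fell (11.1%, near the share of all genes). The 2, Hspa1a and Hspa1b, are near-identical copies whose reads may be split. Of 28 ATF4 and unfolded protein response genes 1 rose, Trib3 (3.99-fold), and 6 fell, among them Xbp1 (1.49-fold); without the air library Ib1 3 fell. Without Ib1 or IIb3 Hspa1a was not called.

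Calls among solute carriers were near the background of all genes, 9.66% higher and 12.8% lower. Of 206 solute carriers 20 rose (9.71%) and 23 fell (11.2%), and without the air library Ib1 13 rose. Slc6a8, the creatine carrier, went from 2.75 ± 1.05 to 31.6 ± 11.9 CPM and the zinc carrier gene Slc39a2 from 141 ± 16.3 to 296 ± 11.6 CPM. Slc31a1, the copper importer, rose 1.76-fold. The iron exporter ferroportin, Slc40a1, was at 15.4, 12.3, 11.3, 18.9 and 15 CPM in air and at 3.51, 5.46, 2.81, 5.47 and 4.92 CPM in smoke, and the inositol carrier gene Slc5a3 fell 2.61-fold. Of 29 ion channels and pumps 7 rose (24.1%) and 9 fell (31%), and without Ia4 4 rose. Atp2b4, a pump that removes calcium from the cell, fell from 17.9 ± 6.67 to 2.20 ± 0.754 CPM, and Kcnn4, a calcium-gated potassium channel, rose from 0.222 ± 0.497 to 6.68 ± 3.72 CPM.

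Secreted and structural genes rose on balance. Of 19 matrix genes 8 rose (42.1%) and 1 fell (5.26%), against 9.66% and 12.8% of all genes. Spp1, osteopontin, was at 371, 376, 421, 410 and 423 CPM in air and at 1145, 788, 1945, 923 and 1506 CPM in smoke, and Gpnmb, a glycoprotein of lipid-laden macrophages, was at 775 to 1003 CPM in air and at 1981 to 2288 CPM in smoke. The smoke mice were alike in Gpnmb and differed in Spp1, where IIa5 was lowest and IIb1 highest. Tgfbi rose 1.82-fold and Ecm1 3.39-fold. Of 20 growth factors 8 rose and 4 fell, with Igf1 at 32.2 ± 4.79 CPM in air and 61.5 ± 12.8 CPM in smoke, the progranulin gene Grn 1.64-fold and the stress cytokine gene Gdf15 2.37-fold higher, and Csf1, the ligand of CSF1R, at 0.112 to 1.94 CPM in air and 8.69 to 29.8 CPM in smoke. Of 30 actin, myosin and adhesion genes 14 rose and 6 fell; the vesicle motor Myo5a rose 2.28-fold and the cortactin gene Cttn 1.98-fold.

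A set of genes was close to silent in air. Of the genes called higher, 41 had no read in the 5 air libraries together and 70 had at most 3. Genes in the table needed reads in some library, so a gene silent in air could only be found higher, and 17.3% of the 765 genes with a mean log2 CPM under -2 in air were called higher and none lower. The levels stayed low in smoke and differed between mice: the 70 genes summed to 113, 60.6, 294, 85.3 and 180 CPM in smoke and to 0.359 to 3.03 CPM in air. The smoke library IIb1 held the highest value for 38 of the 70 genes and IIb3 for 21, while IIa5 held the lowest for 36. Against a floor of 3 reads over the air group, the complement gene C1qa was at least 257.83-fold higher, the endothelial-type transcription factor gene Sox7 at least 105.6-fold, the chemokine gene Ccl7 at least 84.3-fold, the chemerin receptor gene Cmklr1 at least 83.99-fold and the arginase gene Arg1 at least 50.95-fold. Sox7 was even among the smoke mice (7.25 ± 2.01 CPM), whereas C1qa (17.7 ± 15.2 CPM) and Ccl7 (5.86 ± 6.71 CPM) were not. Ccl2 had 1 read in air and 498 in smoke, a ratio of 461.3 (exact binomial 95% interval 82.4 to 18257.1, counting error only).

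Markers of other macrophages and dendritic cells overlap with these genes in part, since C1qa and C1qc belong to both. Of 11 monocyte and interstitial macrophage markers 4 rose, among them C1qa, C1qb and C1qc, and 1 fell, and the sum was 167 to 197 CPM in air and 141 to 344 CPM in smoke (exact permutation p = 0.516, n = 5 per group). Ly6c2 had no read in air and 0.5 CPM in smoke, and Ccr2 (10.2 and 8.12 CPM) and Cx3cr1 (0.581 and 0.904 CPM) did not pass. Of 6 dendritic cell markers Ccr7 and Fscn1 rose, Ccr7 not without Ia4 (log2 change 2.90). The dendritic cell sum was 14.6 to 28.4 CPM in air and 29.3 to 48.8 CPM in smoke without overlap (exact permutation p = 0.00794, the smallest that 5 against 5 can give, adjusted p = 0.0337). Whether other cells in the gate contribute to these genes was not tested.

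Large gene families shifted along transcript length. By the longest annotated transcript, the genes were put in 5 equal bins. The shortest bin (57 to 1727 bases) had a median log2 change of 0.13, with 11.1% called higher and 3.08% lower, and the longest bin (5004 to 123179 bases) a median of -0.17, with 6.42% higher and 28% lower. Within each library, the median log2 CPM of the shortest bin minus that of the longest was -3.46 to -3.33 in air and -3.16 to -2.95 in smoke. These differences did not overlap (exact permutation p = 0.00794, adjusted p = 0.0337, two-sided, n = 5 per group). The same bins had median log2 changes of 0.07 and -0.06 in miR-155 KO.

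**Figure D4:**
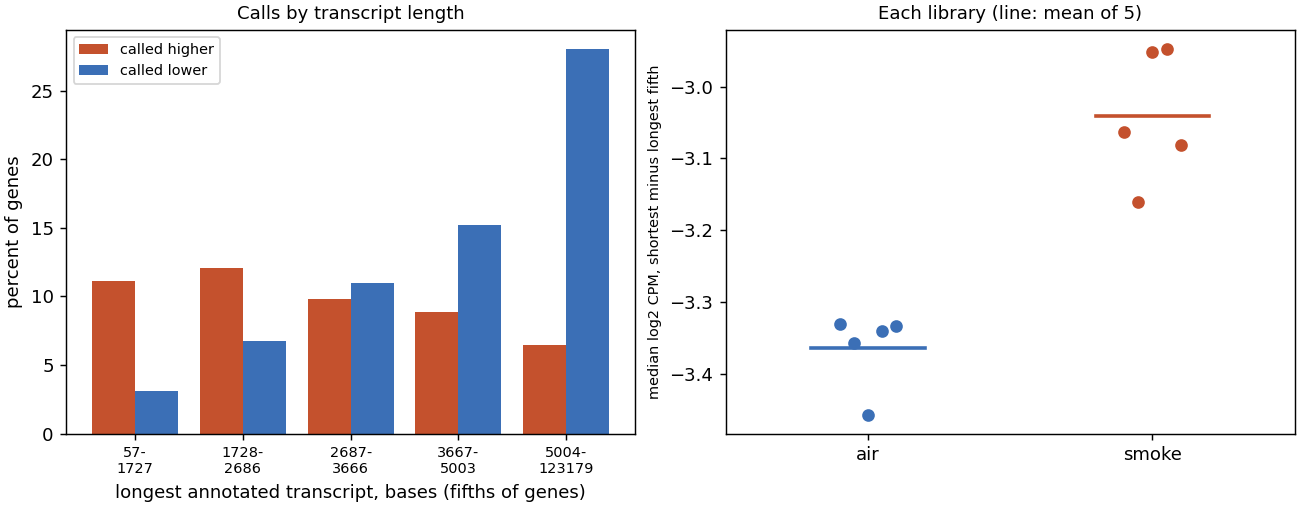
Left, percent of genes called higher (red) and lower (blue) with smoke in WT, by 5 equal bins of the longest annotated transcript in bases; lower calls go from 3.08% in the shortest bin to 28% in the longest. Right, median log2 CPM of the shortest bin minus the longest in each library, 1 point per mouse with the mean as a line; smoke libraries (-3.16 to -2.95) lie above air libraries (-3.46 to -3.33).

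Family counts are therefore given as fitted and again with a length trend taken out of each library, a correction chosen after seeing the data. Of all 13225 genes 9.66% were higher and 12.8% lower as fitted. With the trend removed, 1155 of 13165 genes were higher and 1457 lower. Histone lysine methyltransferases and demethylases, which write and remove marks on chromatin and have long transcripts, had 21 of 41 lower and none higher, and 12 lower with the trend removed. Kmt2e, a member of that list, fell 1.60-fold. Zinc finger Zfp genes had 45 of 333 lower and 5 higher (33 and 5 with the trend removed), with Zfp217 1.54-fold lower. As fitted, the Zfp share called lower, 13.5%, was near that of all genes, and the share called higher, 1.5%, was below it. SR and hnRNP splicing factors had 11 of 30 lower and none higher (11 and 1), with Hnrnph1 1.42-fold lower, and without the smoke library IIb2 7 were lower. Among short genes, the proteasome had 20 of 39 subunits higher and none lower (9 and 1), respiratory complex I 13 of 46 higher and none lower (2 and 1), the nuclear genes of complexes II to V 21 of 43 higher and 2 lower (6 and 3), and cytosolic ribosomal proteins 12 of 83 higher and 1 lower (1 and 16). The ribosomal direction thus turned with the correction, and as fitted its higher count ran from 4 without Ia3 to 17 in other fits that left out 1 library. Without Ib1, 8 complex I genes were higher. With the trend removed 1 of the interferon-stimulated genes rose, as against 4 as fitted, and 5 MHC genes fell, as against 3. In contrast, the counts stayed at 28 of 30 higher for mitosis, and were 15 of 31 for lysosomal protein and sugar breakdown, 11 of 17 for the V-ATPase and 5 higher and 4 lower of 16 for the clock.

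The miR-155 KO mice gave the same comparison in separate animals. In them 933 genes were called higher (7.05%) and 1118 lower (8.45%). Both comparisons took the spread of each gene from the same 20 libraries, so their calls were not independent. Of the 1278 genes called higher in WT, 1186 (92.8%) had the same sign in KO and 605 were called higher there, which is 47.3% of the WT list and 64.8% of the KO list. Of the 1690 called lower in WT, 1581 (93.6%) had the same sign and 778 were called lower, 46% of the WT list and 69.6% of the KO list. The difference between both responses passed the test for no gene (0%; 1302 genes at an unadjusted p of 0.05). That count changed with the library IIa5: without it, 42 genes passed. Only WT libraries were left out in turn, so the part of single KO libraries was not tested. Median changes of the genes called in WT were 0.59 in WT and 0.41 in KO for those higher, and -0.48 and -0.30 for those lower, but these genes were chosen in WT, which favours WT. The host transcript of miR-155, Mir155hg, had 2 reads in WT air and 48 in WT smoke, each summed over 5 libraries, and did not pass.

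**Figure D5:**
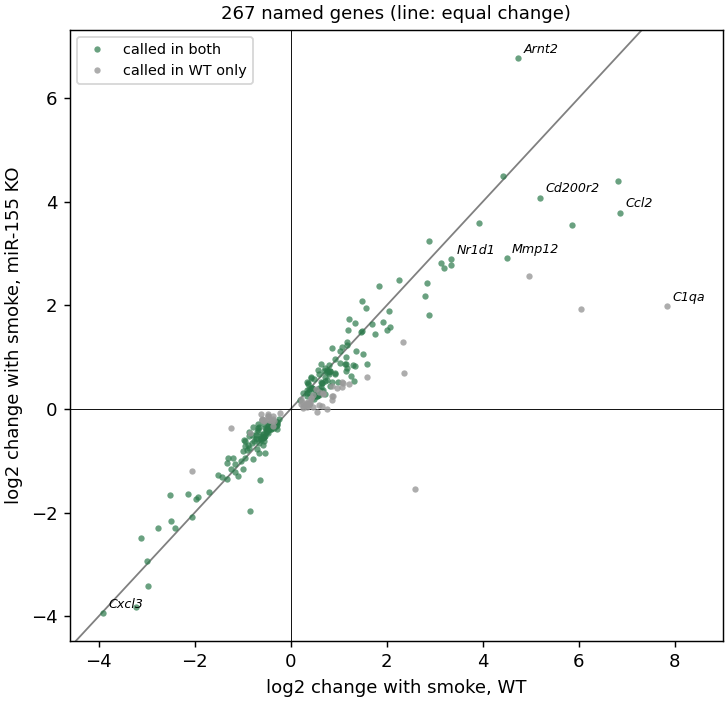
Log2 change with smoke in WT (x axis) and in miR-155 KO (y axis) for the 267 genes named by the rule, all called in WT; green points were called in KO too and grey points were not, and the line marks equal change. Nearly all points share their sign; C1qa (7.85 in WT, 1.99 in KO) lies farthest below the line and Arnt2 (4.74 and 6.78) farthest above it.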

How the data were processed

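RNA of sorted alveolar macrophages was sequenced as poly-A selected libraries, 1 per mouse. Per the submitters' processing notes, STAR 2.6.0c, limma and the build GRCm38.p6 were used. For the counting tool, the annotation and the filter on genes, the sources used here give no name. The authors deposited 1 log2 CPM value per gene and library. Whole reads were recovered from them for 100% of values within 0.001 reads, and zeros and read totals come from these. Of the 13225 symbols 508 had characters changed by R's naming rules and were restored, and 13165 matched GENCODE M21, which gave transcript lengths.

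All 20 libraries entered 1 limma 3.58.1 model (R 4.3.3) with a mean per group and a variance prior that follows the mean, and p-values were adjusted by Benjamini-Hochberg over all 13225 genes. Genes with an adjusted p under 0.05 are called. The labels give each mouse a code of its own, and nothing says how cages or days were shared. The limma p-values set each change against the spread between mice within groups, over all 20 libraries. A cage or day shared by a whole group cannot be told apart from its exposure. Marker sums and the length difference were compared by exact permutation tests over the 10 WT libraries. Read totals, genes without a read and the mitochondrial share of reads were tested too, and the adjusted p is Benjamini-Hochberg over all these values. A sum of sex-linked genes, not shown above, fell from 253 ± 11.8 to 195 ± 14.9 CPM (exact permutation adjusted p = 0.0337). Of the 5 listed, 4 were in the table, all Y-linked and with reads in both groups, and Xist was not. Ddx3y, Kdm5d and Uty fell, while Eif2s3y did not pass (80.7 ± 9.86 and 80.9 ± 4.49 CPM). The cause of the fall was not tested. Fold changes are on the fitted log2 CPM scale unless given as bounds, for which 3 reads over the group were the floor. Library totals of 8354910 to 11385515 put 3 reads at 0.263 to 0.359 CPM.

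The members and lists were chosen with earlier results of these data known. Named genes, predicted and clone names (Gm or Rik) left out, were the 10 largest increases and decreases among genes with a group mean of at least 5 (log2 CPM) and no overlap, the 6 largest gains and losses of CPM, up to 4 called members per list by p and up to 3 per family and direction. A further 81 genes, members of the same lists or of the marker sets, were chosen after their values were seen. Not every gene named by the rule is reported here. Alternatives were other variance priors, filters, pseudocounts, normalizations, the WT libraries alone, the letter of the mouse code, voom weights and leaving out each WT library. A loess correction for transcript length was added after seeing the data. Promoter windows are from RefSeq. Python 3.11.15, numpy 2.4.6, pandas 2.3.3, scipy 1.17.1 and matplotlib 3.10.9 were used.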

Additional observations from a re-analysis of the deposited data

Results flagged for a closer look

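Each group of 5 values behind a gene named above was searched for a library that stands apart, by the gap to its nearest neighbour as a share of the whole range on the log2 scale, with 0.71 as the limit. Of 408 groups looked at, genes and library measures together, 29 (7.11%) passed the limit, and chance alone flags about 1 in 20.

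In smoke, IIb3 stood lowest for Clec4e (0.861), Clec5a (0.785), Myo5a (0.763), Trib3 (0.737), Hspa1a (0.724) and Clock (0.716), and highest for Tbxas1 (0.765) and Ccnb2 (0.75). IIa5 stood highest for Tgfbr1 (0.847) and Arntl (0.826) and lowest for Tef (0.782) and Grn (0.737), in each case on the side of the air mice. IIb1 stood highest for Ccr2 (0.81), Irf7 (0.787), Per3 (0.723) and Tnfsf8 (0.72). IIa1 stood lowest for Ptgir (0.873) and had the most reads of the smoke libraries (0.815).

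In air, Ib1 stood highest for Kcnn4 (0.962) and Cidec (0.808), lowest for Lpl (0.808) and lowest in the difference between short and long transcripts (0.795). Ia4 stood highest for Atp6v0d1 (0.915) and Kmt2e (0.751) and lowest for Cxcl1 (0.741). Ib4 stood highest for Ccl2 (0.899), which had 1 read there and none in the other air libraries, and lowest for Cx3cr1 (0.74). Ib2 stood lowest for Cd63 (0.735) and Ia3 lowest for Slc31a1 (0.726).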

How the results depend on the processing

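The count of 2968 called genes was 2680 to 3512 over the planned settings that kept all libraries of the groups compared, 2484 to 3010 when each WT library was left out in turn, and 2612 with the length trend removed. Of the 2968 calls 76.6% were shared with the length correction, 81.9% to 91.7% with the fits without 1 library, and 86.9% to 99.5% with the others. The counts of higher genes (1044 to 1280 without 1 library) and lower genes (1436 to 1730) kept within 1.5 times. The count of genes changed at least 2-fold was 638 as fitted, 544 to 646 without 1 library, 209 on log2(CPM + 5), and 420 and 264 when the mean log2 CPM had to reach 1 and 3; the added CPM shrinks low genes and the filters test fewer of them. The count of genes whose response differed between WT and KO was 0 as fitted, 4 on log2(CPM + 1), 6 on log2(CPM + 5), 2 and 4 with the filters at 1 and 3, 2 with median centring, 3 with quantile normalization, 2 with a robust prior, 3 without a trend, and 0 to 42 without 1 library, with 42 without IIa5 and at most 1 without any other; the cause was not tested. Of 333 called genes named by the rule or in the text, 314 kept their call with the length trend removed, 319 with quantile normalization, and 319 to 328 without 1 library. Actb (-0.071) and Psap (-0.079) turned under quantile normalization, without passing. No paired analysis was possible because each mouse code occurs once.

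With 5 mice a group, genes with a few reads carry wide errors: a gene under 3 reads in a library is under 0.263 to 0.359 CPM there, and a gene without a read is not shown to be absent.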
